A study of Homo sapiens with 2 samples.

Results

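Accessible chromatin was examined around 5 genes of the ETS family that act in blood cells, SPI1, SPIB, ETS1, FLI1 and ETV6. A region of the deposited list belonged to a locus if its midpoint lay within 50 kb of the span of the gene. By this rule 31 of 23612 regions (0.131%) were members, with 9 each at ETS1, FLI1 and ETV6, 4 at SPI1 and 0 at SPIB. The list comes from ATAC-seq, an assay whose transposase inserts sequencing adapters where DNA is open, in GM12878, an EBV-transformed B lymphoblastoid line. Both libraries were made from separate untreated cultures in exponential growth, with 50000 cells in each, and form 1 group. The authors deposited 1 list for both cultures, with the position and score of each region and no value per culture, so depth is unknown and the spread between the 2 cultures cannot be given. No condition was compared and no test could be run over samples, so all comparisons below describe the list. Results from 1 transformed line are not a measure of B cells in general, and a region that is not listed cannot be called closed chromatin.

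ETS factors share a DNA-binding domain that recognises a GGAA core, and the flanking bases and partner proteins are known to separate their targets. SPI1 encodes PU.1, which in mice is required for both myeloid and B lymphoid development and acts in a dose-dependent way. SPIB encodes its closest relative, Spi-B, which is known from B cells and plasmacytoid dendritic cells. ETS1 is a lymphocyte factor that in mice restrains plasma cell differentiation, FLI1 acts in blood stem cells, megakaryocytes and B cells, and ETV6 is a repressor needed for blood stem cells in adult mouse marrow that is also known from the ETV6-RUNX1 fusion of childhood leukaemia.

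ETV6 had an accessible region across its start and SPIB had none in its window, and RefSeq promoters were at hand for these 2 of the 5 genes. The bases before each start are therefore shown, from GRCh38.p14, for ETV6 at chr12:11649424-11649673 and for SPIB at chr19:50418688-50418937, both on the plus strand. The list is in hg19, so these promoters were not placed on its regions base by base. The RefSeq spans of ETV6 and SPIB are 166 and 262 bp longer than the spans used for the regions. The RefSeq starts, from which promoter positions are counted, therefore need not be the starts used for the regions. Each is 250 bases long and ends at the base before the start, and capitals mark the core GGAA or its reverse complement TTCC.
ETV6: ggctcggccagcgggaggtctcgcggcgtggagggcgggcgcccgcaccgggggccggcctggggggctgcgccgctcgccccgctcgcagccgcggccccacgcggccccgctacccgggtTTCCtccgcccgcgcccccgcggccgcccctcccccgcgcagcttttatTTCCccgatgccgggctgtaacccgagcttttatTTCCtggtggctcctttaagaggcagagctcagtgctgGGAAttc
SPIB: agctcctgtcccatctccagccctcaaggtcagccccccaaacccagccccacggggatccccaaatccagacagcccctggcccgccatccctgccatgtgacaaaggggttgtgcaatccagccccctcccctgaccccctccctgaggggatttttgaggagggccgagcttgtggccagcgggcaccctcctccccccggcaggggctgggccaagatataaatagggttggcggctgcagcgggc
The ETV6 promoter held 4 core matches, which began at -128, -79, -45 and -7 from the start, and the SPIB promoter held 0. Of 35116 RefSeq promoters of this length, 92.7% held at least 1 match, with a median of 3. In the ETV6 promoter the stretch agcttttatTTCC, of 13 bases, occurred at -88 and again at -54, so that 2 of its core matches sat in copies of it. Among all promoters, 5.84% held some stretch of that length in 2 non-overlapping copies. ETV6 had 32 CG dinucleotides and a GC content of 74.4%, SPIB had 7 and 66.4%, and the median promoter had 11 and 58%. The letters TATAAA, searched on both strands, began at -29 in SPIB and did not occur in this stretch of ETV6, while 10.7% of all promoters held them. A match of letters is not a bound site, and a missing match says nothing about the factor.

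The 31 members covered 2.73% of the 1.04 Mb in the 5 windows, against 0.682% of chromosomes 1 to 22 and X for the list. That is 29.9 regions per Mb in the windows and 7.72 per Mb over those chromosomes. The chromosome lengths include centromeres and stretches without genes, whereas the windows were placed on genes. Of the members, 22 (71%) had their midpoint inside a gene span, although the spans made up 51.8% of the windows. The spans thus held 41 regions per Mb and the flanks 18 per Mb, with 7 members upstream of a start and 2 downstream of an end. Regions in gene spans at ETS1, FLI1 and ETV6 account for all 22.

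**Figure D1:**
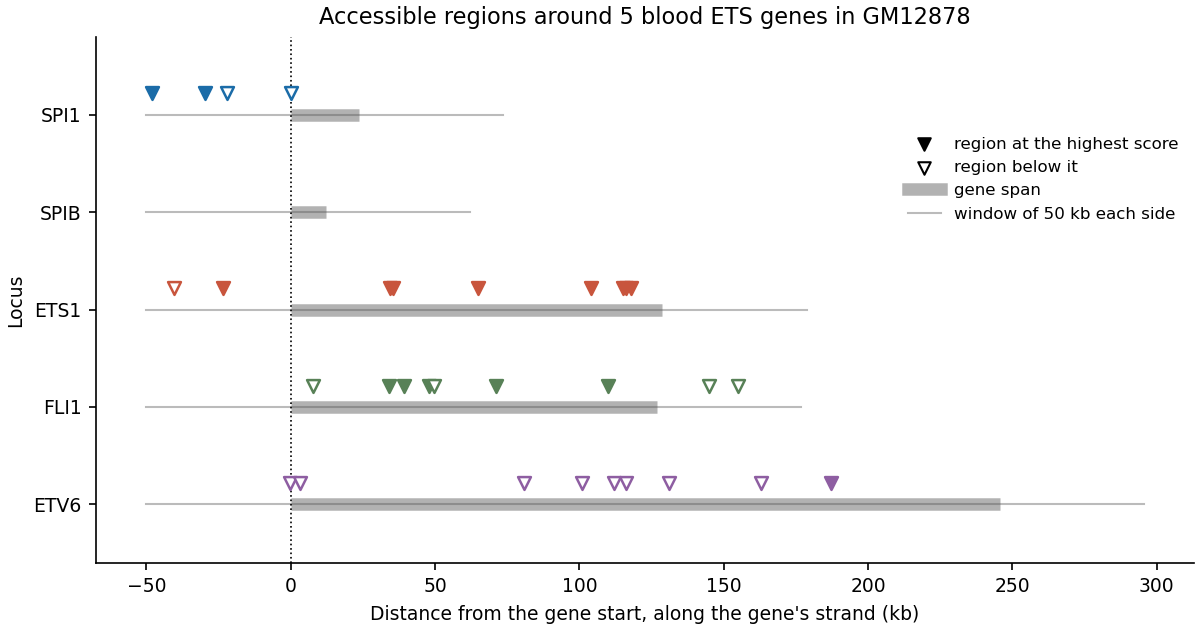
Each triangle is the midpoint of 1 accessible region, placed by its distance in kb from the gene start along the strand of the gene, for the 5 loci from SPI1 at the top to ETV6 at the bottom; filled triangles are at the highest score of the list. The map shows 7 and 7 regions inside ETS1 and FLI1, 8 inside ETV6, none past the start of SPI1 and none around SPIB.

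SPI1 lies on the minus strand of chromosome 11, from 47376409 to 47400127 in hg19. All 4 of its regions had their midpoint upstream of the gene. The region 47399943 to 47400380 covered the start itself, from 253 bp before it to 184 bp after it. It was 438 bp wide and had a score of 785, where the list runs from 541 to 1000. The score is the authors' own whole number per region. Its range has the form of a scaled irreproducible discovery rate, in which a higher value means closer agreement of rank between replicates. The name of the deposited list also holds idr, the short form of that rate, but no label names the scale. The highest score was shared by 60.1% of the list, so it does not rank the regions that have it.

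Farther upstream of SPI1, a region of 1396 bp with a score of 698 lay 21.2 kb from the start (47421328 to 47422723). It was the widest at this locus. A region of 1134 bp followed at 29.1 kb and one of 856 bp at 47.4 kb, both at the highest score. The regions at 21.2 and 29.1 kb formed the largest cluster of the locus, of 2 regions over 9.06 kb, and the longest gap between members, of 20.9 kb, separated it from the region at the start. The next genes in that direction are SLC39A13, a zinc transporter, and PSMC3, a proteasome subunit, by their order in the RefSeq table. The 3 distant regions are therefore not assigned to SPI1. No region had its midpoint in the gene or in the 50 kb beyond its end, toward MYBPC3, and the gap over the gene spanned 108 kb.

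SPIB, on chromosome 19 from 50922195 to 50934309 on the plus strand, had 0 regions in its window of 112 kb. The nearest one upstream ended 84.8 kb before the gene, was 838 bp wide and had a score of 748. The nearest one downstream began 79.8 kb after the gene, was 908 bp wide and was at the highest score. The interval between them, 50837391 to 51014120, spanned 177 kb. Their region numbers were consecutive, which cannot show whether a region was removed there, as it is not known when the regions were numbered. An empty stretch was common along the chromosomes: of all end-to-end tiles of this length on chromosomes 1 to 22 and X, 54.2% held 0 regions. Likewise 17.7% of all gaps between neighbouring regions were at least as long as that at SPIB, although it was 4.01 times the median gap. Tiles include stretches without genes, whereas this window was placed on a gene. Of the windows of 22 other ETS genes, which differ in length, 7 held 0 regions.

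ETS1 and FLI1 are neighbours on chromosome 11 and are transcribed away from each other, with 99 kb between their starts. Together they held 18 of the 31 members. Their windows overlap by 1024 bp, in which no region lay, so no region was counted for both. The 2 regions between the genes were both nearer to ETS1. One of 1234 bp at the highest score (128480470 to 128481703) lay 23 kb upstream of its start, and one of 282 bp with a score of 879 lay 40.4 kb upstream. The second of these was the narrowest of all members.

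ETS1 itself, on the minus strand from 128328656 to 128457453, held 7 regions, all of them at the highest score. No region covered its start, which lay in a gap of 57 kb between regions. A pair of regions stood at 34 and 35.1 kb into the gene, 896 and 916 bp wide, with 161 bp between them. A single region of 779 bp stood at 64.6 kb (128392038 to 128392816). The other 4 formed a cluster of 15.1 kb near the end of the gene, from 10.1 to 25.2 kb before its last base. In that cluster 2 regions, of 660 and 892 bp, were 180 bp apart, and the widest region of the locus, of 1386 bp, lay nearest to the start (128352441 to 128353826). These 2 close pairs make up 4 members with a neighbour within 200 bp, all at ETS1, where 2.53% of the regions on chromosomes 1 to 22 and X had one.

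FLI1, on the plus strand from 128556430 to 128683162, also held 7 regions, and its start lay in a gap of 65.6 kb. Its first region began 7.29 kb into the gene, was 1205 bp wide and had a score of 764 (128563720 to 128564924). A cluster of 4 regions over 16.4 kb followed, from 33.7 to 50.2 kb into the gene, with widths of 920, 1321, 1088 and 841 bp. The first 3 of these were at the highest score and the last had 792, and the one of 1321 bp was the widest at FLI1 (128594873 to 128596193). Single regions of 1279 and 460 bp stood 70.7 and 110 kb into the gene, both at the highest score, and the gap of 37.8 kb between them was the longest between members of FLI1. Past the end of the gene, 2 regions of 510 and 544 bp had scores of 763 and 596. FLI1 was the only one of the 5 loci with members downstream, on the side of KCNJ1, a potassium channel gene.

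ETS1 and FLI1 are known to be transcribed from further starts inside these spans. The start used here is the outer end of the span in hg19, so a region inside the span may lie at another start. The positions of those starts were not used, and no region was assigned to one. By the outer ends, 2 of 5 starts were covered by a region, those of SPI1 and ETV6, and the other 3 had none within 5 kb.

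ETV6, on the plus strand of chromosome 12 from 11802788 to 12048325, had the widest of all members at its start. This region of 1593 bp (11801652 to 11803244) reached from 1136 bp before the start to 456 bp after it and had a score of 802. A second one of 1342 bp with a score of 579 began 2.62 kb into the gene. A gap of 76.5 kb followed, the longest between members of a locus. The next region, of 934 bp, lay 80.4 kb into the gene and had a score of 994. A cluster of 3 regions over 16.5 kb came after it, with widths of 765, 455 and 1002 bp and scores of 661, 775 and 739. Regions of 740 and 644 bp, with scores of 742 and 578, lay 131 and 163 kb into the gene. The last, of 1021 bp, lay at 186 kb and was the only one at the highest score (11988985 to 11990005). The remaining 58.3 kb of the gene and the 50 kb beyond it held none, and the next region stood 144 kb after the last one.

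The share of regions at the highest score differed between loci, on counts of 4 to 9 regions each. At ETS1 8 of 9 regions were at the highest score, at FLI1 5 of 9, at SPI1 2 of 4 and at ETV6 1 of 9. Over the members this was 16 of 31, or 51.6%, where 60.1% of the whole list was at that score. The 95% exact binomial interval of the members' share was 33.1 to 69.8%. It covers counting of regions only and treats neighbouring regions as independent, although scores went together within ETS1 and within ETV6. Without ETV6 the share was 15 of 22, or 68.2%, and without ETS1 it was 36.4%. The pooled share is thus near the background and hides ETS1 above it and ETV6 below it, while FLI1 and SPI1 were near it. Chromosomes 11 and 12 had 59.7% and 60.4% of their regions at the highest score. What part any cause has in the differences between the loci was not tested.

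Widths are set beside these scores. Among the members 12 of 31 were at least 1000 bp wide, and of the whole list 29.8%. At ETV6 1 of 4 such wide regions was at the highest score, at the other loci 6 of 8, and in the list 91.9%. The 8 ETV6 regions below that score had a median width of 849.5 bp, the 7 other members 544 bp and all such regions of the list 556 bp. These 8 followed each other without a break and with the region before the window made a run of 9. Runs of 8 or more consecutive regions below the highest score held 0.802% of the regions on chromosomes 1 to 22 and X, in 20 runs, of which the longest had 13. This run was singled out after the values were seen.

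**Figure D2:**
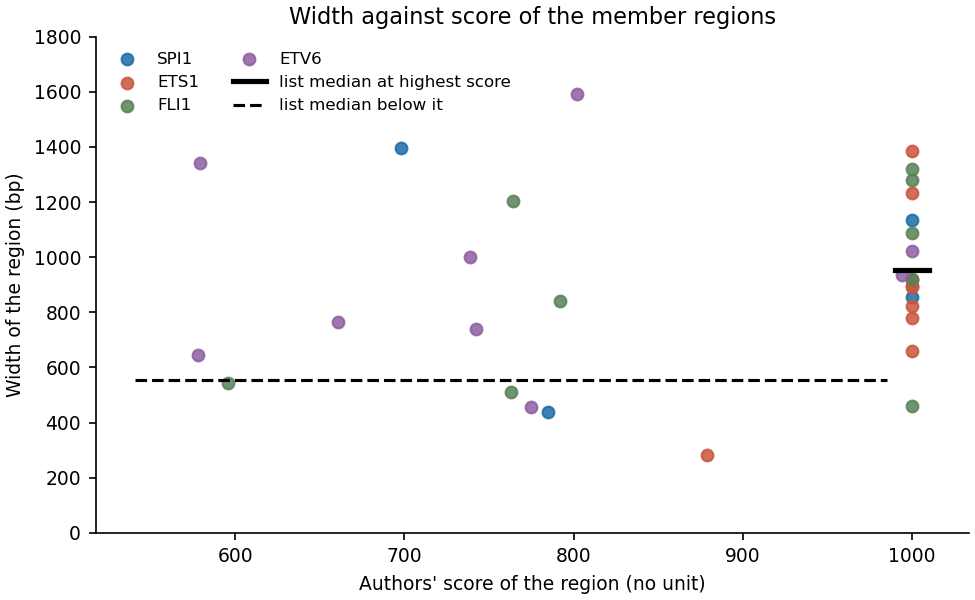
Each point is 1 member region, with the authors' score on the x axis and the width in bp on the y axis, coloured by locus; black lines are the median widths of the list, 953 bp at the highest score and 556 bp below it. Regions of ETS1 stack at the highest score with 1 exception of 282 bp, while ETV6 has 3 regions of at least 1000 bp at scores of 579, 739 and 802.

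The median width was 995 bp at SPI1, 892 bp at ETS1, 920 bp at FLI1 and 934 bp at ETV6, and 896 bp over all members (range 282 to 1593 bp). The list had a median of 756 bp with quartiles at 547 and 1082 bp. At the highest score the members' median was 918 bp and the list's 953 bp, and below it they were 765 and 556 bp. Below it the loci differed, with 849.5 bp over 8 regions at ETV6 and 544 bp over the 7 others.

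**Figure D3:**
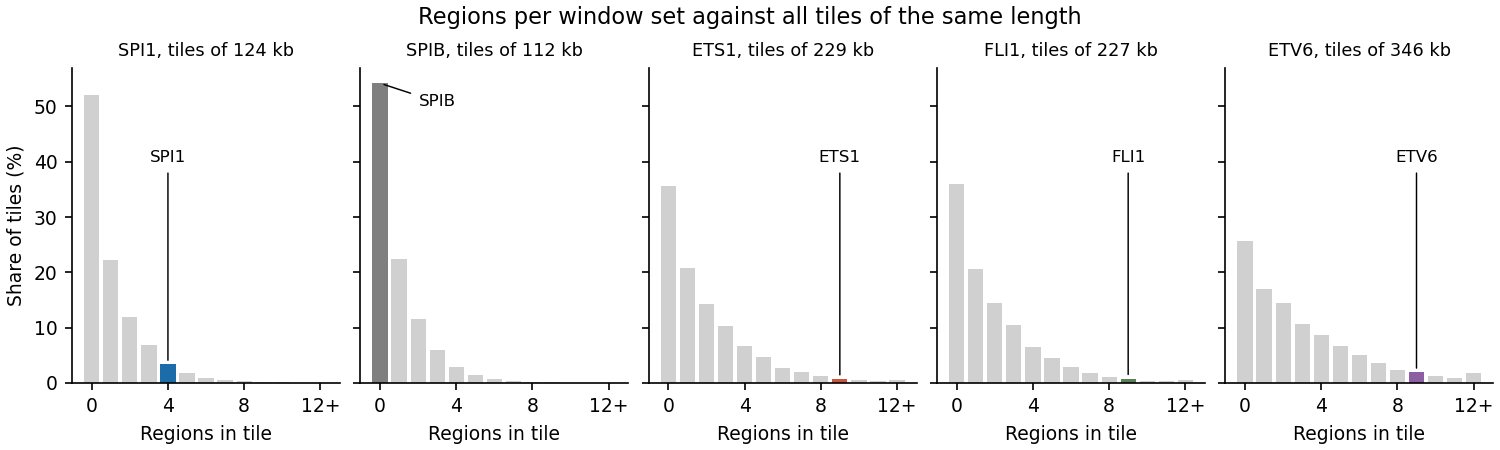
Bars give the share in percent of all end-to-end tiles of chromosomes 1 to 22 and X, cut to the length of each window, by the number of regions in a tile, with 12 or more pooled; the coloured bar marks the number found at the locus. SPI1 with 4, ETS1 and FLI1 with 9 each and ETV6 with 9 sit in the thin upper part, and SPIB with 0 sits in the most common class.

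The windows of ETS1 and FLI1 were among the fuller stretches of their length. At least 9 regions were found in 1.93% of tiles as long as the window of ETS1 (229 kb) and in 1.92% of those as long as that of FLI1 (227 kb), where the median tile held 1. For ETV6, with 9 regions in 346 kb, the share was 5.8% and the median tile held 2. For SPI1, with 4 regions in 124 kb, it was 7%, and the median tile held 0. Tiles near centromeres and in heterochromatic bands were left out. Tiles include stretches without genes, whereas each window was placed on a gene, so the shares describe how rare such counts are along the chromosomes and say nothing particular to ETS genes.

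Within the windows, members stood closer together than regions of the list. The median gap between neighbouring members was 16.1 kb over 27 gaps, against 44.1 kb in the list. By locus it was 12.9 kb at ETS1, 15.2 kb at FLI1, 16.5 kb at ETV6 and 17.2 kb at SPI1. A neighbour within 12500 bp was found for 19 of 31 members (61.3%), compared with 41.9% of the regions on chromosomes 1 to 22 and X. Clusters of 4 or more regions at that distance held 8 members, 4 each inside ETS1 and FLI1, and 8.59% of all regions. No cluster in these loci had more than 4, so the limit of 4 equals the size of the largest member clusters. At this distance any higher limit would have left no member in such a cluster. The members' count is therefore not read as an excess over the list. The gaps counted between members leave out those across the edge of a window, which ran from 65.6 to 149 kb at SPI1, ETS1, FLI1 and ETV6. That at SPIB, of 177 kb, is left out too. The list median keeps all gaps, so the members' median gap is shorter in part by construction.

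**Figure D4:**
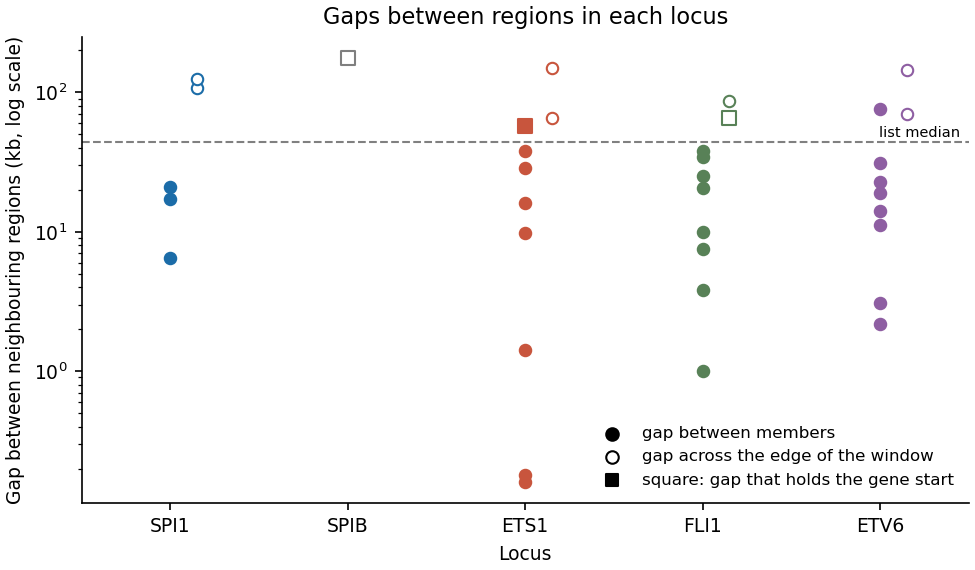
Points are the gaps in kb between neighbouring regions at each locus on a log axis, filled between 2 members and hollow across the edge of a window; squares hold the gene start, and the dashed line is the median gap of the list, 44.1 kb. The starts of SPIB, ETS1 and FLI1, taken as the outer ends of their spans, lie in gaps of 177, 57 and 65.6 kb. Between members, the only other gap above that median is 1 of 76.5 kb at ETV6, while every gap across an edge is above it.

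The limit of 50 kb cut through no region, as counting by any overlap with the windows also gave 31 members. The outermost members lay 47.9 kb from SPI1 (856 bp, highest score), 40.5 kb from ETS1 (282 bp, score 879) and 28.5 kb from FLI1 (544 bp, score 596). The nearest regions outside lay 58.5 kb from FLI1, which is the outermost member of ETS1, 71.2 kb from ETV6 (471 bp, score 764), 80.3 kb from SPIB (908 bp, highest score) and 85.2 kb from SPI1 (1471 bp, highest score).

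The 5 blood ETS genes held 29.9 regions per Mb and a median of 9 regions, and 22 other ETS genes held 12.2 per Mb and a median of 1.5. Of these others, 15 had a region within 50 kb of the gene and 7 had none, with 39 regions in 3.2 Mb. ELF4 and ERF had most, with 6 each, followed by ELF2 with 5. The windows of ELF4 and ERF were 0.146 and 0.107 Mb long. Both were thus denser than any of the 5 blood ETS loci, of which FLI1 was the densest with 39.7 per Mb. A high density was therefore not particular to the 5 genes. ELF3, ERG, ETV3, ETV3L, ETV7, SPDEF and SPIC had 0, among them SPIC, which is the third member of the PU.1 subfamily, and ERG, the closest relative of FLI1. A region within 5 kb of the start was found for 2 of 5 blood ETS genes and for 9 of the 22 others. The start was the outer end of the span, so a region at a further start inside ETS1 or FLI1 was not counted here. At the highest score were 16 of 31 regions of the blood ETS genes and 26 of 39 of the others. No test was made of these differences, and windows of large genes hold more regions by their length.

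Markers of the cell type did not separate lineages by the presence of regions. Of 6 B lineage genes 4 had a region within 50 kb, and CD79B and CD22 had 0. EBF1 had 9, PAX5 5, MS4A1 3 and CD79A 2. All 4 T lineage genes (CD3E, CD2, CD8A, CD28) and all 3 myeloid genes used (CD14, MPO, CSF1R) also had at least 1, as did 1 of 2 liver genes. Per Mb the lists held 15.3, 14.5, 16.1 and 3.85 regions. A region within 5 kb of the start was found for 3 of 6 B lineage genes, PAX5, EBF1 and MS4A1, for 1 of 4 T lineage genes, CD28, and for 1 of 3 myeloid genes, CD14. A region near a gene is therefore not read here as its expression.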

How the data were processed

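ATAC-seq libraries from 2 cultures of GM12878 form 1 group, per the labels. The authors deposited 1 list with no header that gives position, number and score per region. The score is a whole number from 541 to 1000 and the values of both cultures are joined. The name of the list holds idr and short forms that read as filters for mappability, mitochondrial DNA and blacklisted regions. It is therefore taken as cut and filtered, and a region left out by these steps cannot be told from one never found. The deposited positions are in hg19, per the submitters' processing notes, whose tool list holds MACS2 2.1.0, bedtools 2.24.0, BWA 0.7.13, Trim Galore 0.3.3, CASAVA 1.8.4, SAMtools 0.1.19 and Picard 1.92 with no roles. Whether reads were shifted for Tn5 is not given in the sources used.

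Positions are 1-based. Gene spans and strands were given with the choice of genes, in hg19. Gaps are the bases between neighbouring regions, and clusters join regions at most 12500 bp apart. Tiles, cut from the first base of each chromosome, used hg19 lengths and bands from the R package circlize 0.4.16 and left out centromeric, variable and stalk bands. Spans of other ETS genes and markers were set from general knowledge, rounded to kb, and left out where their length differed from the GRCh38.p14 gene table by more than 1.5 times (ELF1 and HBB). Some marker genes are not reported here. Promoters and gene order come from RefSeq, GRCh38.p14. Python 3.11.15, numpy 2.4.6, pandas 2.3.3, scipy 1.17.1 and matplotlib 3.10.9 were used, and the counting was tested on simulated regions.

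The members, lists and settings were chosen with earlier results of these data known. In each locus with regions the text names the region at or nearest the start, the widest region, the largest cluster and the longest gap; among other ETS genes it names those with most regions and with none. The runs of scores, close pairs, wide regions and promoter motifs were added after the values were seen. The limit of 4 regions for counting members in clusters matches the largest member clusters, so that count is not independent of the values.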

Additional observations from a re-analysis of the deposited data

How the results depend on the processing

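Over 17 results and 51 alternatives, 42 kept a value within its limit and 9 moved it, and 46 had been planned. Some of the 42 were fixed in advance. Leaving out SPIB removed no region, and its count of 0 could not change with a smaller window or with highest-score regions only. A count had to stay within 1.5 times, a share or density within its 95% exact binomial interval, and the median width within its interval from order statistics (765 to 1088 bp). The interval for the share at the highest score is wide, so 36.4% without ETS1 and 68.2% without ETV6 both counted as kept. With regions at the highest score only, the members numbered 16, or 15.4 per Mb, and 9 of them had a neighbour within 12500 bp, by the construction of that setting; ETV6 then kept 1 region, FLI1 5 and SPI1 2. Windows of 20 and 100 kb gave 25 and 38 members, with 1 at SPI1 in the smaller and 3 at SPIB in the larger. Counted within 50 kb of the span in place of 5 kb of the start, 15 of the other ETS genes had a region. Moving the tiles by 0.5 of their length, an alternative chosen after seeing the data, left the share for ETS1 at 1.85% and that for ETV6 at 5.87%. The largest cluster had 3 regions when joined at 5 kb and 5 at 25 kb. No paired analysis was possible because both cultures are joined in the deposited list, and for the same reason neither could be left out. Depth is unknown.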
